A study of Macaca fascicularis with 28 samples.

Results

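The connexin genes GJA1, GJB2, GJB5, GJB6 and GJC1, which stratified epithelia are known to express, were followed through taste buds and lingual epithelium of the cynomolgus macaque tongue. Probe sets were taken as members where their gene symbol, from the study's own gene list or otherwise from the annotation of the array, was 1 of these 5. This gave 5 of 52024 probe sets, which belong to 3 of the 14873 genes named on the array: 1 for GJB6, 1 for GJB5 and 3 for GJC1. GJA1 and GJB2 were not analysed here, because no probe set carried their symbol in the tables used. Affymetrix arrays designed for the rhesus macaque read the RNA of 28 samples, each of about 5000 cells cut by laser capture microdissection out of tongue sections of 10 animals (7 female and 3 male, 2.6 to 4.5 years old). The sources used here name no treatment or genetic change, and the paper states that the animals were due for euthanasia for other purposes. CV taste buds, from the circumvallate papillae at the back of the tongue, came from 4 animals, and FG taste buds, from the fungiform papillae at the front, came from 6 animals. The top and the bottom fraction of CV taste buds came from 4 other animals, arrayed as a separate set. The epithelium without taste buds (LE) next to CV papillae came from the 4 animals that gave CV taste buds, and the LE next to FG papillae from all 6 animals of the first set. According to the paper, LE was cut from surface epithelium around the papillae. Deeper layers of the epithelium were not sampled separately. Each sample pools cells of many sections of 1 animal, tissue was taken after death, and a captured taste bud area holds several kinds of taste cell.

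Connexins are membrane proteins that assemble into hemichannels. Hemichannels of adjoining cells dock into gap junctions, through which ions and small metabolites pass between the cells. In stratified squamous epithelium gap junctions couple keratinocytes to each other, and the set of connexins a keratinocyte makes changes as it moves from the basal layer towards the surface. GJB6 and GJB2 are known from human deafness and skin disease, GJB5 from skin and placenta, GJA1 from nearly every tissue, and GJC1 from heart, vessel walls and neurons. In the gene order of the macaque reference, GJB6 and GJB2 lie side by side with GJA3 next to them.

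The samples carried the markers of their labels. The 18 markers of differentiated keratinocytes summed to 8920 to 12438 units in CV and to 9463 to 28543 units in FG taste buds, to 11941 to 17978 units in top and 12981 to 18556 in bottom fractions, against 104060 to 119386 in LE next to CV and 93893 to 129290 in LE next to FG papillae. The summed level of 14 taste cell markers was 11936 to 25268 units in all taste bud samples and 969 to 1709 units in all LE samples. The LE samples held less of the 7 basal keratinocyte markers (378 to 5493 units) than the taste bud samples (5700 to 11553 units). Intensities are in arbitrary units on a linear scale, array medians ran between 13.57 and 16.75 units, and 25 units, the minimum of the study, was reached by 37.3% to 40.8% of probe sets. Precision is limited by how few arrays each group had.

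GJB6 and GJB5 were far lower in whole taste buds than in the surface epithelium around them, in every animal of the first set and at both papillae. GJB6 was at least 70.5-fold lower in CV taste buds and at least 28.6-fold lower in FG taste buds than in the adjacent LE. For GJB5 the difference was at least 6.09-fold in CV and at least 11.1-fold in FG taste buds. These folds compare geometric means with every value under 25 units raised to 25, and they are lower bounds because values of taste buds were raised. All 3 GJC1 probe sets stayed under 25 units in all 28 samples.

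**Figure D1:**
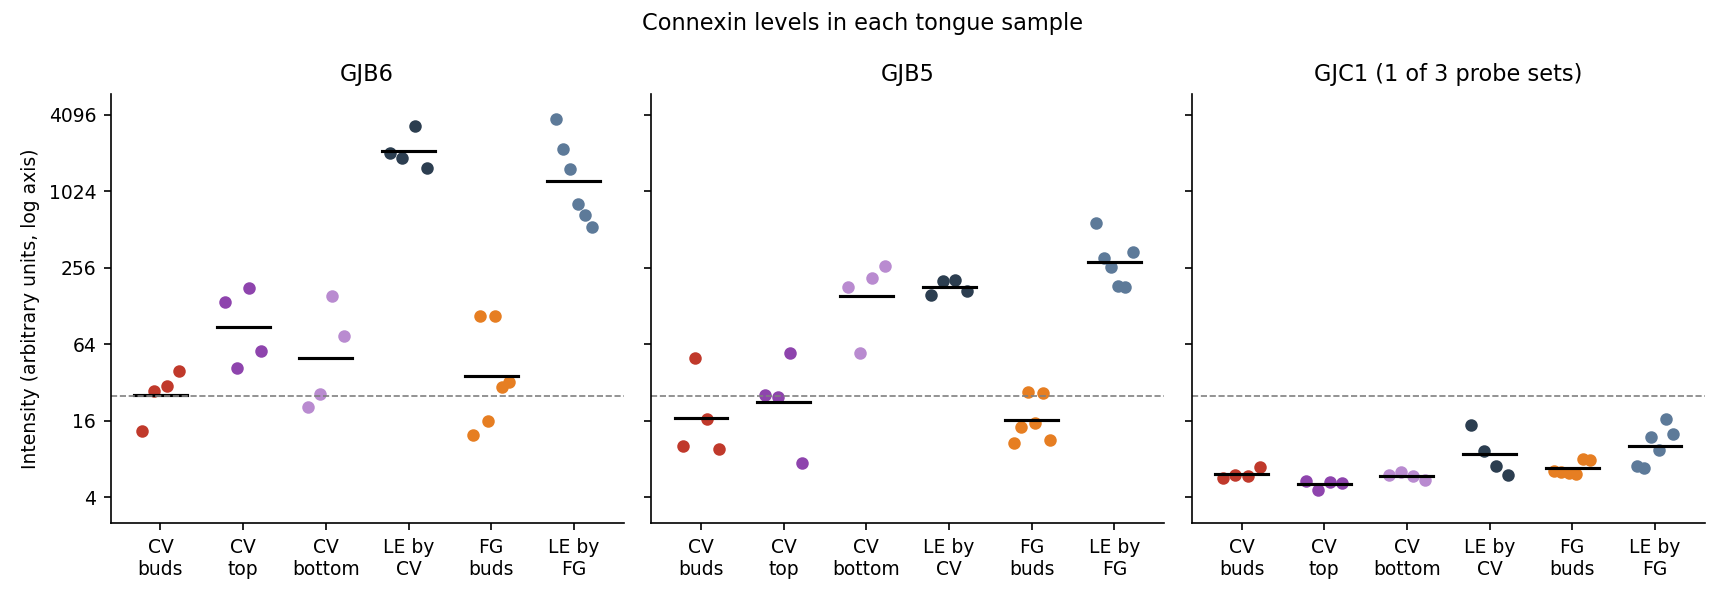
Intensity (arbitrary units, log axis) of GJB6, GJB5 and the GJC1 probe set of highest mean level in each of the 28 samples, by tissue. Points are samples in the order of the animals, black lines are geometric means, and the dashed line marks 25 units; all 10 LE samples exceed all whole taste buds for GJB6 and GJB5, GJB5 is also near the LE level in 3 of 4 bottom fractions, and GJC1 stays under the line.

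GJB6 (MmuSTS.2410.1.S1_at) measured 13.3, 27.6, 29.8 and 39.2 units in CV taste buds of animals 1, 3, 4 and 5. In LE next to CV papillae of the same animals it measured 2058, 1877, 3320 and 1560 units. Not one CV taste bud sample came near the lowest LE sample, and 1 of the 4 was under 25 units. The log2 change in CV taste buds was -6.37 ± 0.67 (standard error, adjusted p = 7.97e-06 from limma), lower in 4 of 4 animals. Here and below, log2 changes are differences of group means fitted by limma, and adjusted p-values are by Benjamini-Hochberg over 26176 probe sets. Both member probe sets tested were called lower at an adjusted p of at most 0.05, while 18% of all tested probe sets were called lower and 35.3% in either direction. The other 3 member probe sets, those of GJC1, did not reach 25 units in 4 samples and were not tested.

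In FG taste buds GJB6 lay between 12.3 and 106 units with a median of 30.9 units. In the LE next to FG papillae it lay between 533 and 3775 units with a median of 1173 units. The groups did not overlap, although both were wide: FG taste buds of animals 2 and 4 had 106 units each, and LE had its lowest levels in animals 4, 5 and 6. The log2 change was -5.11 ± 0.54 (adjusted p = 7.35e-06), and GJB6 was lower in 6 of 6 animals. Within an animal the FG level was between 0.00327 and 0.13 of the LE level, the lowest share in animal 1 and the highest in animal 4. The FG taste buds of animal 4 also had the highest sum of differentiated keratinocyte markers of any taste bud sample (28543 units), while those of animal 2 had 13557 units. The part of such cells in the GJB6 level was not tested. Both member probe sets tested were again called lower, against 20.2% of all tested probe sets called lower, 21.1% higher and 41.2% in either direction.

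GJB5 (MmuSTS.4833.1.S1_at), a connexin of keratinocytes, changed in the same direction as GJB6. It measured 10.0, 49.4, 16.4 and 9.51 units in CV taste buds of animals 1, 3, 4 and 5. In the adjacent LE of these animals it measured 155, 202, 203 and 167 units. The LE samples lay close together, well above all CV taste buds, of which animal 3 alone exceeded 25 units. The log2 change was -3.43 ± 0.49 (adjusted p = 0.000122), lower in 4 of 4 animals.

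In FG taste buds GJB5 lay between 10.7 and 27.1 units with a median of 14.7 units. In the adjacent LE it lay between 179 and 574 units with a median of 282 units. No FG sample approached the LE range, and only animals 3 and 5 exceeded 25 units in FG taste buds. The log2 change was -4.12 ± 0.40 (adjusted p = 3.23e-06), lower in 6 of 6 animals. In bulk samples like these, fewer cells that make a transcript and less transcript per cell cannot be told apart.

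Differentiated keratinocyte markers were lower in the same comparisons. Of the 18 genes of that list, 16 were called lower in CV taste buds (median log2 change -5.00, against -0.08 over all tested probe sets) and 17 in FG taste buds (median -4.65, against 0.05). The smallest adjusted p-values were those of TGM1, SBSN, TGM3 and IVL in CV taste buds, which are genes of the cornified surface layers. Of 7 basal keratinocyte genes, 6 were called higher in CV taste buds, and 5 higher and 1 lower in FG taste buds. Of 13 taste cell genes tested, 10 were called higher and 1 lower in CV taste buds, and 8 higher and 1 lower in FG taste buds. Leukocyte markers summed to 244 to 714 units in CV and 451 to 1145 units in FG taste buds, against 4195 to 5479 units in LE next to CV and 1362 to 3113 units in LE next to FG papillae. Of 6 such genes, 4 were called lower in CV and 3 in FG taste buds. Both nerve and Schwann cell genes tested, GAP43 and NGFR, were called higher in CV and FG taste buds. The part of these differences in cell types in the connexin changes was not tested.

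**Figure D2:**
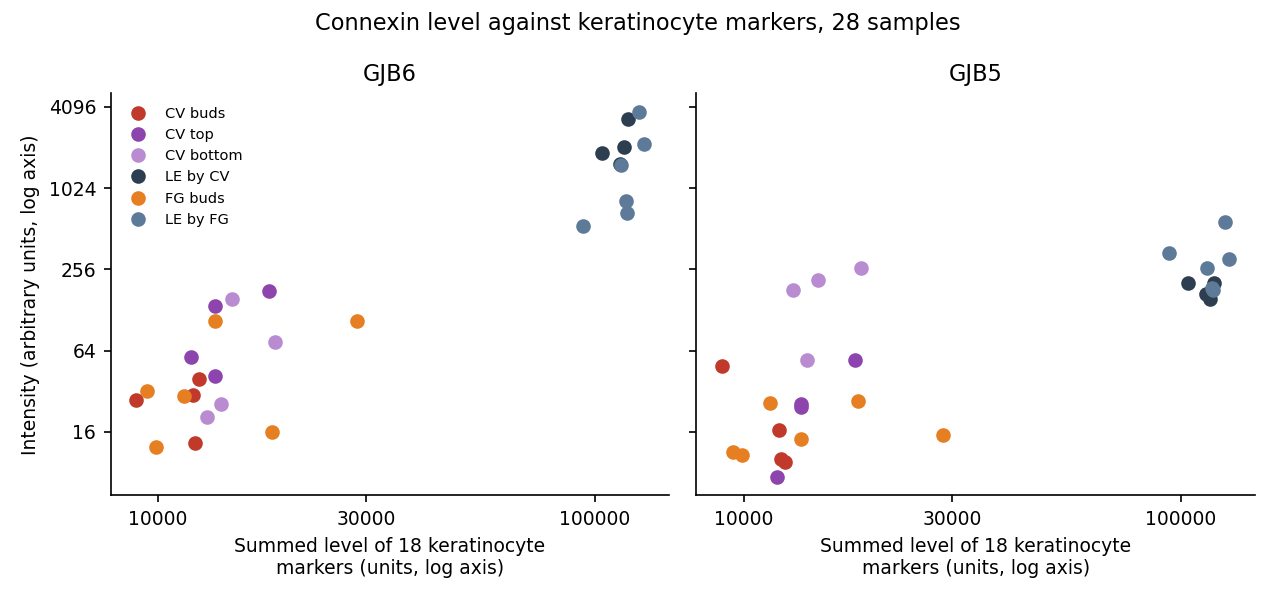
Intensity of GJB6 and GJB5 (arbitrary units, log axis) against the summed level of 18 differentiated keratinocyte markers (units, log axis) in 28 samples, coloured by tissue. Taste bud samples lie at sums up to 28543 units and LE samples from 93893 units, and 3 of 4 bottom fractions stand above all other taste bud samples for GJB5 but not for GJB6.

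The taste buds of the 2 papilla types did not differ detectably in either connexin. The log2 change of CV over FG taste buds was -0.36 ± 0.64 for GJB6 (95% confidence interval -1.73 to 1.01, adjusted p = 0.904) and -0.01 ± 0.47 for GJB5 (-1.02 to 1.00, adjusted p = 0.996). Many of these values were under 25 units. Neither member was called, and 0.871% of all tested probe sets were.

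Between the epithelia, GJB6 averaged 2204 ± 772 units in LE next to CV papillae and 1583 ± 1240 units in LE next to FG papillae (SD, n = 4 and 6). GJB5 averaged 182 ± 24.7 units in LE next to CV and 307 ± 146 units in LE next to FG papillae. The ranges overlapped for both genes. The log2 change of LE next to CV over LE next to FG papillae was 0.90 ± 0.64 for GJB6 (-0.47 to 2.26, adjusted p = 0.487) and -0.69 ± 0.47 for GJB5 (-1.70 to 0.32, adjusted p = 0.464). Neither passed the test, against 1.26% of all tested probe sets called (0.97% higher and 0.294% lower).

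Levels in LE ranged more widely next to FG papillae, a difference in spread that was not tested. The highest GJB6 value in LE next to FG papillae was 7.09 times the lowest, compared with 2.13 times next to CV papillae. For GJB5 these ratios were 3.20 and 1.31. The LE next to FG papillae had 6 samples against 4, and a ratio of highest to lowest tends to rise with the number of samples. In the 4 animals that gave both, GJB6 next to FG papillae ran from 666 to 3775 units. Animal 1 had the highest LE level of both genes next to FG papillae (3775 units of GJB6 and 574 units of GJB5). Next to CV papillae the highest GJB6 and GJB5 levels were those of animal 4.

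The taste bud effect was compared between papilla types as the CV change over its LE minus the FG change over its LE. This difference was -1.26 ± 0.86 on the log2 scale for GJB6 (-3.10 to 0.59, adjusted p = 0.523) and 0.68 ± 0.63 for GJB5 (-0.68 to 2.04, adjusted p = 0.661). Neither was called, against 0.871% of all tested probe sets (0.271% higher and 0.6% lower). The intervals still allow effects that differ by several-fold.

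**Figure D3:**
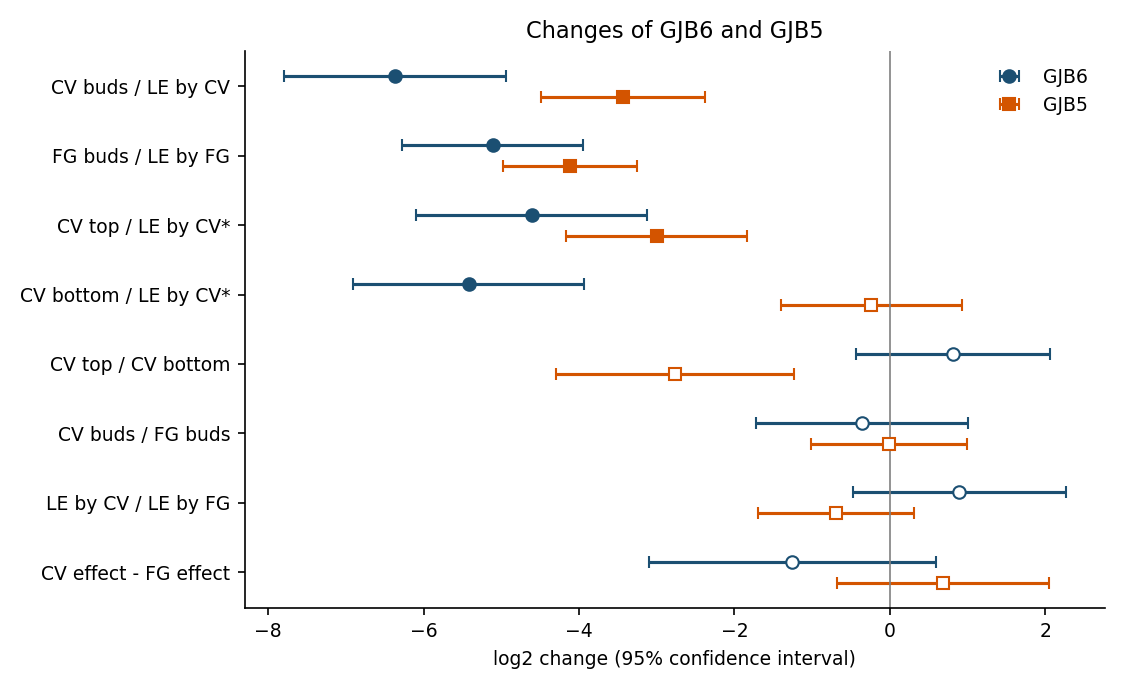
log2 changes of GJB6 and GJB5 in each of the 8 comparisons, with 95% confidence intervals from limma; filled symbols passed an adjusted p of 0.05 and open symbols did not. Comparisons with a star set fractions against LE of other animals and of another array set. Both genes lie between -3.43 and -6.37 in whole taste buds against LE, while in bottom fractions GJB6 is at -5.42 and GJB5 at -0.24.

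Between the fractions of CV taste buds, GJB5 was lower in the top in 4 of 4 animals but short of the threshold, while GJB6 levels overlapped. GJB5 measured 25.7, 24.6, 54.8 and 7.39 units in the top fractions of animals 7, 8, 9 and 10. In the bottom fractions of these animals it measured 179, 54.4, 213 and 263 units. The top fraction was the lower in each animal, although the highest top sample (animal 9) just exceeded the lowest bottom sample (animal 8). Top levels were 0.144, 0.451, 0.258 and 0.0281 of the bottom levels of the same animal, and the bottom fraction was at least 4.99-fold higher by geometric means. The log2 change of top over bottom was -2.76 ± 0.64 (95% confidence interval -4.30 to -1.23). Its adjusted p over 21167 probe sets was 0.0737, so it missed the threshold of 0.05 with the animal as a block. Without the block the adjusted p was 0.0499, and with all 28 samples in 1 fit it was 0.00714. With the study's unmoderated paired test, its p-values adjusted here, it was 0.297. Without any 1 animal the adjusted p was 0.123 to 0.21, with a log2 change as small as -1.97 without animal 10.

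GJB6 measured 137, 41.5, 178 and 57.0 units in the top fractions of animals 7 to 10. In the bottom fractions it measured 20.7, 25.8, 154 and 73.9 units. The groups overlapped widely, with the top fraction higher in 3 of 4 animals. The log2 change was 0.81 ± 0.52 (-0.44 to 2.06, adjusted p = 0.432). No member was called between the fractions, where 3.14% of all tested probe sets passed (1.68% as higher in top and 1.46% as lower).

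Other cell markers also differed between the fractions. The summed level of the fibroblast markers was 703 to 1947 units in top and 4986 to 7034 units in bottom fractions, and 5 of 6 tested fibroblast genes were called lower in the top fraction. Basal keratinocyte markers summed to 6230 to 7349 units in top and 9113 to 11553 units in bottom fractions, with 1 of 7 genes, TP63, a transcription factor of basal cells, called lower in the top fraction. Differentiated keratinocyte markers had overlapping sums and 0 of 14 tested genes called. No listed marker was at 0, as the lowest value of the whole table was 2.15 units. The 14 taste cell markers separated the fractions fully, at 21876 to 25268 units in top and 11936 to 14665 units in bottom fractions, with 2 of 13 tested genes called higher in the top fraction. Over the 8 fractions, which share animals in pairs, the log2 level of GJB5 had a Pearson correlation of -0.83 with the taste cell sum and of 0.77 with the fibroblast sum. The correlation was 0.67 with the basal keratinocyte, 0.58 with the differentiated keratinocyte, 0.58 with the endothelium and mural and 0.31 with the skeletal muscle sum. With the minor salivary gland, nerve and Schwann and leukocyte sums it was -0.58, -0.48 and -0.22. The part of these cells in the GJB5 levels was not tested.

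**Figure D4:**
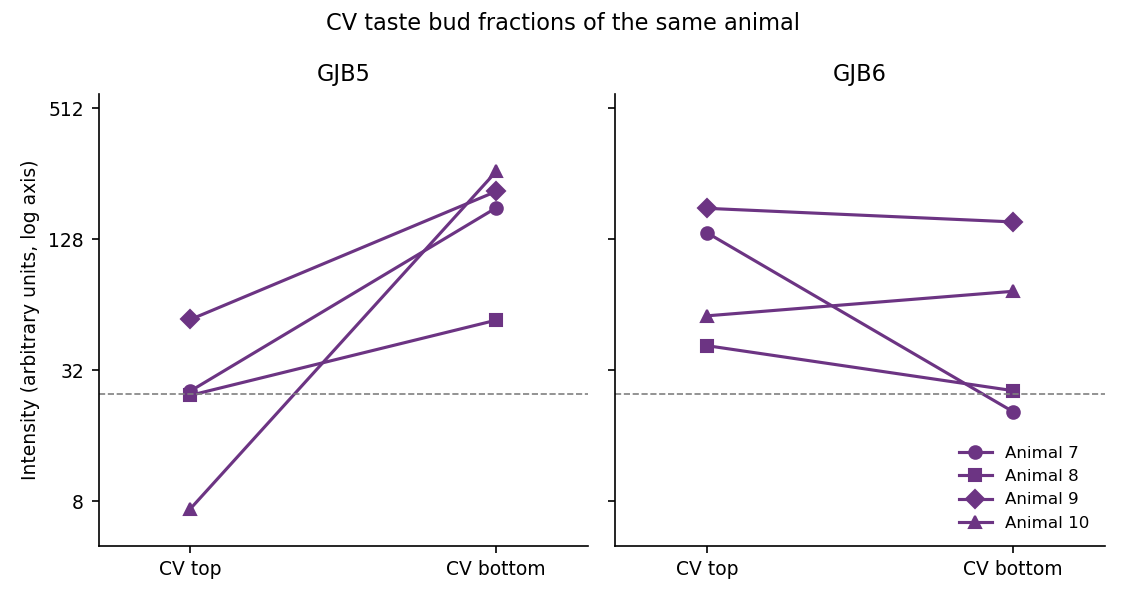
Intensity of GJB5 and GJB6 (arbitrary units, log axis) in the top and in the bottom of CV taste buds; each line joins the samples of 1 animal and the dashed line marks 25 units. GJB5 is lower in the top fraction of 4 of 4 animals, while the lines of GJB6 run in both directions.

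Set against LE next to CV papillae, the top fractions had less of both genes. GJB6 changed by -4.61 ± 0.72 on the log2 scale in top fractions (24.3-fold lower by geometric means, adjusted p = 1.58e-05), and GJB5 by -3.00 ± 0.56 (at least 5.89-fold lower, adjusted p = 0.000144). Both members tested were called lower, against 19.3% of 27751 probe sets. In the bottom fractions GJB6 was again lower (-5.42 ± 0.72, adjusted p = 1.91e-06). GJB5 was not called there (-0.24 ± 0.56, 95% confidence interval -1.40 to 0.92, adjusted p = 0.763). In that comparison 1 of the 2 members tested was called lower, against 19% of all tested probe sets called lower, 23.1% higher and 42% in either direction. Fractions and LE came from different animals and array sets, so that tissue and array set cannot be told apart in these values.

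By geometric mean, the order of GJB6 was LE next to CV papillae (2115 units), LE next to FG papillae (1240 units), top fraction (87.2 units), bottom fraction (49.6 units), FG taste buds (35.9 units) and CV taste buds (25.6 units). The break lay between the LE groups and the rest, and the neighbouring LE groups, the fractions, and CV and FG taste buds did not differ beyond their spread. The order of GJB5 was LE next to FG papillae (283 units), LE next to CV papillae (181 units), bottom fraction (153 units), top fraction (22.5 units), CV taste buds (16.7 units) and FG taste buds (16.3 units). For GJB5 the widest step between neighbours lay between the bottom and the top fraction, which were not called different (adjusted p = 0.0737 from limma). The place of the bottom fraction next to LE compares different animals and array sets. All 4 bottom fractions, with GJB5 at 54.4 units and more, exceeded all whole CV taste buds, at 49.4 units and less. For GJB6 all 4 top fractions, at 41.5 units and more, also exceeded all whole CV taste buds, at 39.2 units and less. By geometric mean whole CV taste buds lay below both fractions for both genes. These comparisons run across array sets and were not tested, and the share of all probe sets that separate in the same way was not counted.

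GJC1 gave no usable level. Its 3 probe sets ranged from 3.19 to 17.8 units over all samples. MmuSTS.2407.1.S1_at averaged 6.09 ± 0.57 units in CV taste buds and 9.30 ± 3.99 units in the adjacent LE, MmugDNA.27995.1.S1_at 6.97 ± 0.85 and 10.96 ± 5.04 units, and MmugDNA.29373.1.S1_at 5.86 ± 0.75 and 9.15 ± 5.15 units (SD, n = 4 each, CV first). All these means were below the median of every array. Such values do not show that GJC1 was absent, only that these probe sets did not register it above the minimum.

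The log2 levels of GJB6 and GJB5 had a Pearson correlation of 0.75 over all 28 samples. It was 0.25 over the 10 LE samples, -0.02 over the 10 whole taste bud samples and 0.01 over the 8 fractions. These samples share animals and normalization, and many taste bud values are under 25 units.

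Among 11472 named genes, those with the profile most like GJB6 over the 28 samples were TGM1 (r = 0.94), the transglutaminase that crosslinks the cornified envelope, TMPRSS11A (0.94), a membrane serine protease of epithelia, and LOC699612 (0.93). TGM1 averaged 27.5 units in CV taste buds and 2110 units in the adjacent LE. For GJB5 they were SLC45A2 (0.91), known as a transporter of pigment cells, MUC15 (0.89), a membrane mucin, and CAPNS2 (0.89), a calpain subunit. All 3 had a higher mean in the bottom than in the top fraction, but the fractions were among the samples used to choose them. This is therefore no separate evidence on GJB5. MUC15 averaged 34.3 units in top and 110 units in bottom fractions, and CAPNS2 214 units in top and 852 units in bottom fractions. For GJC1 the nearest were SPHK1 (0.83), LINGO3 (0.81) and IHH (0.79), which rest on GJC1 values under 25 units. Such correlations describe the 28 samples, which share arrays, animals and tissue groups.

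Beyond the members, 10 of 16 other connexin genes listed had a probe set. GJB1, a connexin of liver and myelinating Schwann cells, ran the other way. It lay between 44.5 and 217 units in FG taste buds, with a median of 59.4 units. In the adjacent LE it lay between 8.13 and 43.4 units, with a median of 15.97 units. The groups just failed to touch, with animal 4 at 44.5 units in FG taste buds and 43.4 units in LE. By geometric means the FG level was at least 2.75 times the LE level, since 5 of 6 LE values were under 25 units. The log2 change on the values as deposited was 2.20 ± 0.38 (adjusted p = 0.000523), higher in 6 of 6 animals, and it was 1.46 (adjusted p = 0.0023) with values under 25 raised to 25.

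In CV taste buds GJB1 measured 16.9, 11.7, 23.5 and 12.3 units, and in the adjacent LE 18.5, 10.2, 13.2 and 6.65 units. All these values were under 25 units, and the change did not pass (0.45, adjusted p = 0.48). CV taste buds lay below FG taste buds (-2.33 ± 0.45, adjusted p = 0.0245, and -1.63, adjusted p = 0.0459, with low values raised). This call was lost without animal 1, 3 or 5. It was also lost with the unmoderated paired test that the study's methods name, with p-values adjusted here. Over the alternatives the adjusted p was up to 0.46. The CV and FG effects were not shown to differ (-1.76, adjusted p = 0.182). In the other set of animals, GJB1 was 40.2, 94.6, 131 and 36.9 units in top and 200, 66.3, 37.2 and 69.9 units in bottom fractions, all above 25 units. Against LE next to CV papillae it was higher in top (at least 2.62-fold, log2 change 2.53 ± 0.55, adjusted p = 0.000628) and bottom fractions (at least 3.07-fold, 2.76 ± 0.55, adjusted p = 0.000262), so that the fractions and the whole CV taste buds of the first set stood on different sides of 25 units. Array set and animals differ between them and cannot be told apart from the tissue.

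Most other connexins were dim, but GJA3 averaged above 25 units in whole taste buds and in LE. GJA3, the lens connexin next to GJB2 in the gene order, averaged 47.9 ± 8.46 units in FG taste buds and 91.2 ± 13.8 units in the adjacent LE (SD, n = 6 each; log2 change -0.93 ± 0.20, adjusted p = 0.00228). It was 54.5 ± 7.85 units in CV taste buds and 66.7 ± 14.9 units in the adjacent LE, which did not pass the test. GJD3 was called lower in CV (-1.01, adjusted p = 0.0286) and FG taste buds (-0.95, adjusted p = 0.0122), and GJD4 in FG taste buds (-0.72, adjusted p = 0.0317), with all taste bud levels of GJD3 under 25 units. Of the 4 other connexin genes tested in the first set, 0 were called higher and 1 lower in CV taste buds, and 1 higher and 3 lower in FG ones. Their median log2 change was -0.27 for CV (against -0.08 over all tested probe sets) and -0.83 for FG taste buds (against 0.05). GJC3, a connexin of myelinating glia in mice, reached 25 units in few samples and was called in no comparison. GJA4, GJA5, GJA9, GJA10 and GJD2 were at or under 29.0 units in every sample and were not tested.

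**Figure D5:**
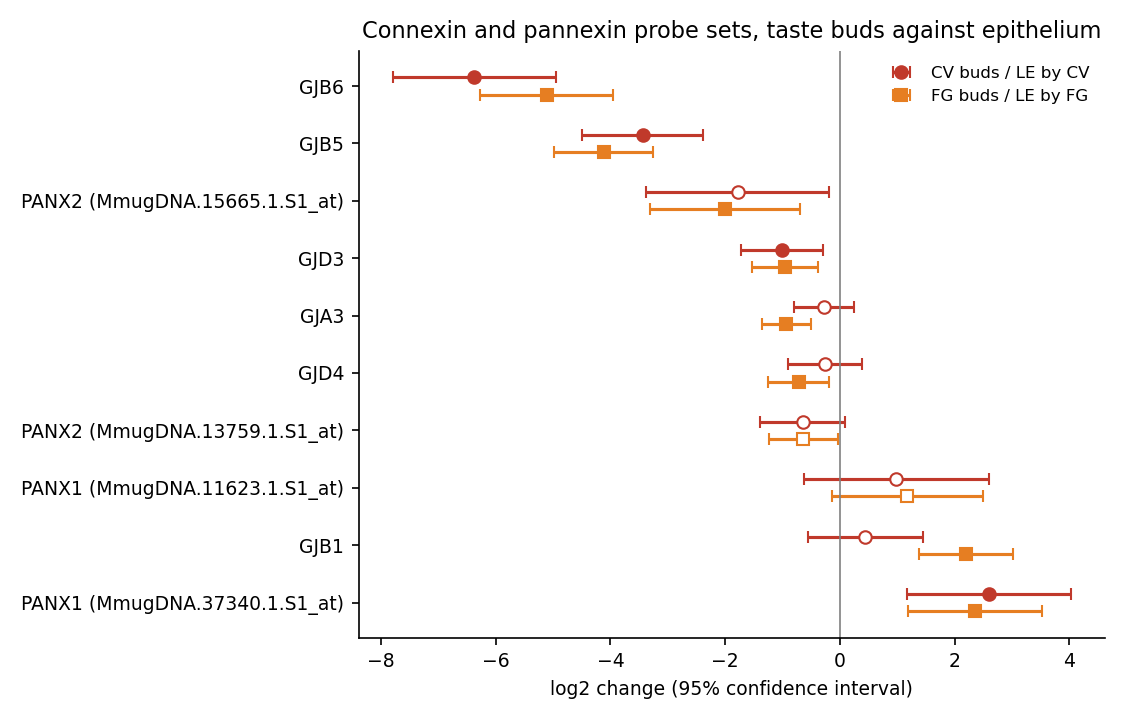
log2 change with 95% confidence interval of every connexin and pannexin probe set tested, in CV taste buds (circles) and FG taste buds (squares) against the adjacent LE; filled symbols passed an adjusted p of 0.05. GJB6 and GJB5 lie lowest, between -3.43 and -6.37, while GJB1 and both PANX1 probe sets lie to the right of zero, with filled symbols for GJB1 in FG taste buds (2.20) and for 1 PANX1 probe set (2.60 and 2.35).

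Pannexins are relatives of connexins in channel form and release ATP, a transmitter of taste cells, from cells. The PANX1 probe set that the study names (MmugDNA.37340.1.S1_at) measured 912, 1046, 1101 and 1959 units in CV taste buds, against 58.5, 296, 248 and 359 units in the adjacent LE. The groups lay apart, and the log2 change was 2.60 ± 0.67 (adjusted p = 0.00814). In FG taste buds it lay between 882 and 2430 units, with 47.2 to 683 units in the adjacent LE (2.35 ± 0.54, adjusted p = 0.00394), higher in 6 of 6 animals. Both calls were lost with the paired test of the methods once its p-values were adjusted here (adjusted p = 0.067 in CV and 0.0686 in FG). The second PANX1 probe set (MmugDNA.11623.1.S1_at) did not pass in CV (0.99, adjusted p = 0.327) or FG taste buds (1.18, adjusted p = 0.139). Against LE next to CV papillae, MmugDNA.37340.1.S1_at was called higher in bottom fractions (1.82 ± 0.66, adjusted p = 0.0298) but not in top fractions (1.34). Array set and tissue cannot be told apart there. PANX1 was listed by the study on these samples, so its direction is not independent evidence. A PANX2 probe set (MmugDNA.15665.1.S1_at) was lower in FG taste buds (-2.001 ± 0.61, adjusted p = 0.0177). That call did not hold without animal 5, without the animal block or with a random block. In CV taste buds neither it (-1.78, adjusted p = 0.0783) nor PANX2 probe set MmugDNA.13759.1.S1_at (-0.64, adjusted p = 0.164) passed.

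Of 15 listed proteins that bind, traffic or phosphorylate connexins, 11 were on the array and 10 were tested. In CV taste buds 3 were called higher and 4 lower, and in FG taste buds 3 higher and 1 lower, where 35.3% and 41.2% of all tested probe sets were called in either direction. The median log2 change of the 10 was -0.59 in CV (against -0.08 over all tested probe sets) and -0.42 in FG taste buds (against 0.05). TJP1, the scaffold that binds connexin tails at the edge of gap junctions, averaged 1827 ± 218 units in CV taste buds and 4372 ± 533 units in the adjacent LE (log2 change -1.26 ± 0.25, adjusted p = 0.00133). In FG taste buds it averaged 1710 ± 245 units, against 3970 ± 826 units in the adjacent LE (-1.20 ± 0.20, adjusted p = 0.00041). A second TJP1 probe set (MmugDNA.22990.1.S1_at) fell by 5.53 on the log2 scale in CV and by 3.64 in FG taste buds. The kinase gene PRKCE was higher in CV (4.03 ± 0.67) and FG taste buds (2.91 ± 0.54), as was DBN1, an actin-binding partner of GJA1 protein (2.38 ± 0.51 and 1.62 ± 0.41).

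CNST, whose protein helps carry connexins from the Golgi to the cell surface, was the 1 partner called to differ between the epithelia. It averaged 6.84 ± 1.78 units in CV taste buds and 326 ± 309 units in the adjacent LE, against 28.7 ± 29.8 units in FG taste buds and 39.5 ± 26.7 units in the LE next to FG papillae (SD). All CV values and 4 of 6 FG values were under 25 units, so that CNST was at least 9.52-fold lower in CV taste buds than in the adjacent LE. The log2 change on the values as deposited was -5.17 ± 0.64 for CV (adjusted p = 3.46e-05) and -0.68 for FG taste buds (adjusted p = 0.315), and these effects differed (-4.49 ± 0.82, adjusted p = 0.0236). With values under 25 raised to 25 the difference was -2.97, still called. It was lost without animal 1, 3, 4 or 5 and with the paired test (adjusted p up to 0.382 over the alternatives). LE next to CV papillae exceeded LE next to FG papillae by 3.23 ± 0.61 (adjusted p = 0.0222), which did not hold without animal 1, 3 or 5 or with the paired test. GJB6 showed no such call between the epithelia.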

How the data were processed

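The deposited values are intensities of 52024 probe sets in 28 arrays, which the authors processed with GC-RMA, a sequence-based background correction and normalization, in GeneSpring (versions not given in the sources used here). RNA was amplified to cDNA before labelling, and levels of different probe sets are not comparable. A marker sum adds intensities of different probe sets, so the brightest weigh most in it and in its correlations. Marker sums are therefore compared only between samples. Probe sets were named by 1997 entries of the study's gene list, otherwise by the array annotation. The 5 members, the gene lists and the tests were chosen with earlier results of these data known.

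Deposited intensities were log2 transformed. limma 3.58.1 in R 4.3.3 tested those probe sets that reached 25 units in 4 or more samples of a fit: 20 samples of the first set in 4 groups, and 8 fractions, each with the animal as a fixed block, and all 28 samples in 6 groups with the animal as a random block. The test was also run on simulated data for some of the comparisons. Those data had independent noise and no animal effect, so they cannot check the blocking by animal. Animals are the replicates. Their pairing comes from the labels; the mean correlation of deviations from group means was 0.053 to 0.118 within and -0.038 to -0.011 between animals. Named were all members, the other connexins on the array and the pannexins tested, which were 2 of 3 pannexin genes in the first set. Also named were up to 4 called genes of other lists by smallest adjusted p, and the 3 genes most like each member by Pearson correlation. Alternatives covered the filter, low values, scaling, moderation, block, test, LE grouping and each animal. The alternative test is the paired test of the study's methods, with Benjamini-Hochberg adjustment added here. The study selected genes by p-values of at most 0.05, with no adjustment described, and by a minimum fold change.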

Additional observations from a re-analysis of the deposited data

Results flagged for a closer look

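In 84 groups of 4 or 6 samples, which cover the 5 member probe sets and the 9 other connexin and pannexin probe sets that were tested, 7 held a sample that stood apart from the rest by Dixon's criterion. Chance alone gives this in about 1 of 20 groups of normally distributed values. The criterion was applied to intensities on the linear scale, whose chance rate was not tested, and all 7 samples were high ones. For the members these were GJC1 (MmugDNA.29373.1.S1_at) in the bottom fraction of animal 7, at 5.70 units with the next sample at 4.28 units, and in LE next to CV papillae of animal 5, at 16.8 units with the next at 7.15 units. Both are under 25 units. GJB6 and GJB5 had no such sample in any of the 6 conditions.

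GJB1 stood apart in FG taste buds of animal 1 (217 units, next 97.1 units) and in LE next to FG papillae of animal 4 (43.4 units, next 17.1 units). GJC3 stood apart in the top fraction of animal 10 (144 units, next 37.0 units), in the bottom fraction of animal 9 (193 units, next 36.8 units) and in LE next to CV papillae of animal 3 (51.6 units, next 15.8 units). CNST had a different change over adjacent LE in CV than in FG taste buds, by the test of the difference itself (-4.49 on the log2 scale, adjusted p = 0.0236 from limma).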

How the results depend on the processing

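GJB6 and GJB5 kept their calls as lower in CV and FG taste buds than in the adjacent LE under all 14 alternatives of each, with log2 changes of -6.72 to -5.88 and -5.55 to -4.48 for GJB6 and -3.90 to -2.61 and -4.39 to -3.47 for GJB5. Top and bottom fractions changed calls: 1 member, GJB5, was called in place of 0 with values under 25 raised to 25 (adjusted p = 0.0414), with an intensity trend (0.0486), with no block or a random block for the animal (0.0499 and 0.0421), and with all 28 samples in 1 fit (0.00714). It was not called with the paired test of the methods (0.297) or without any 1 animal (0.123 to 0.21), where the log2 change was -3.30 to -1.97. Against LE next to CV papillae without the filter, 5 member probe sets in place of 2 were called in top fractions. In bottom fractions 3 in place of 1 were called. The added calls are GJC1 probe sets under 25 units. Over all probe sets without the filter, 16117 of 52024 were called in either direction in top and 13521 in bottom fractions. With the filter these counts were 12338 and 11666 of 27751. Omitting the animal block changed no other call of a member. Centring each array on its median moved the median log2 change of all tested probe sets to 0.22 for FG taste buds against LE (0.05 without it) and to 0.13 between the LE groups (0.02 without it). The cause of these changes was not tested.

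The counts over all probe sets depend on the test, and p-values of the paired test were adjusted in the same way. The paired test called 3109 in place of 9242 for CV taste buds and 6961 in place of 10795 for FG taste buds against LE. It called 0 in place of 228 between CV and FG taste buds, 0 in place of 331 between the LE groups, 0 in place of 228 for the difference of effects and 0 in place of 665 between fractions (unadjusted p under 0.05 in 2615, 3318, 3164 and 3543). With a random block for the animal the last 4 counts were 368, 575, 345 and 1186. Raised low values gave 589 between the LE groups and 349 for the difference of effects, an intensity trend gave 362 for that difference and 1133 between fractions, no block 1033 and no filter 66 between fractions. Without 1 animal these 4 counts were 45 to 227, 58 to 347, 12 to 201 and 0 to 1. Intensities near 25 units limit every statement on taste bud levels of the members, and 4 to 6 animals a group limit the size of difference that can be seen.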
